A study of Mus musculus with 6 samples.

Results

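The 4 Hox clusters were examined at the transcript level in motor neurons (MNs) made from mouse embryonic stem cells (mESCs) of a control and a spinal muscular atrophy (SMA) line. Members were a list of Hox genes of clusters A, B, C and D, matched by symbol in the deposited gene table. This gave 38 Hox genes of 34433 gene symbols. Several neighbouring Hox genes were joined by the authors' assembly into a single entry, and such an entry was counted once, so the 38 genes stood in 32 of the 33345 entries chosen to represent these symbols.

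RNA sequencing was carried out on 6 samples, 3 from Hb9 control MNs and 3 from A2 SMA MNs. Both mESC lines were on an FVB/N background and carried an eGFP reporter under the promoter of Hb9 (Mnx1), a homeobox gene of motor neurons. The labels give the Hb9 line as wildtype and the A2 line as SMN2+/+;mSmn-/-, and by the study's methods the control also carried the human SMN2 transgene (SMN2+/+;mSmn+/+). After neural induction with noggin and fibroblast growth factors, embryoid bodies of both lines received 1 µM retinoic acid (RA) and 1 µM Smoothened agonist for 5 days, and GFP-positive cells were collected by fluorescence-activated cell sorting. Each genotype was a single mESC line, so genotype and line cannot be told apart. The table holds 1 value per genotype in FPKM (fragments mapped to a gene, scaled to its exon length and to all mapped fragments of the library), made by the authors from the 3 samples together. No spread between samples and no test is therefore given for any difference, and the number of reads behind a value is unknown.

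Hox genes encode homeodomain transcription factors that give cells their position along the head-to-tail axis. Within a cluster they lie in the order in which they are used, with low-numbered paralogs active in the hindbrain and high-numbered ones in the trunk and tail, and RA opens the clusters from the low-numbered end. In motor neurons the Hox code separates hindbrain from spinal identity and then sets motor columns and pools, with the Hox proteins binding DNA together with Pbx and Meis cofactors.

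In Hb9 control MNs the highest Hox levels were in entries that hold genes of the low and middle paralog groups, and in A2 SMA MNs these were lower. Summed over the 32 entries, the level was 607 FPKM in Hb9 control and 74.2 FPKM in A2 SMA MNs, which is 8.18-fold lower. The largest differences were in Hoxd3/Hoxd4, Hoxc5/Hoxc10 and Hoxb5, at log2 ratios of A2 SMA over Hb9 control of -6.79, -4.14 and -4.03. Hoxa7, Hoxb1, Hoxb9 and Hoxd8 were within 2-fold. No Hox entry was 2-fold higher in A2 SMA MNs.

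Counts were read against all entries with a symbol. Of these, 14926 reached 1 FPKM in either genotype and were above 0 in both, and 22.4% of them were at least 2-fold lower and 6.83% at least 2-fold higher in A2 SMA MNs. Among the 32 Hox entries, 17 passed this limit, and 13 of the 17 were at least 2-fold lower and 0 were higher. Hoxa9 and Hoxc6 passed through their level in Hb9 control MNs alone. Without any limit on the level, 16 of the 32 Hox entries were at least 2-fold lower and 0 at least 2-fold higher, beside 24.5% and 8.41% of 20595 entries. Of the 3 entries this added to the lower ones, 2 carry the status NOTEST, by which Cuffdiff marks too few alignments for its test, as do 8 of the 32 Hox entries in all. Over all 32 entries, 25 had a log2 ratio below 0 and 7 above 0, where 64.9% of the 20595 entries were below 0. The median log2 ratio was -0.29 over all entries past the limit, with quartiles of -0.89 and 0.19, and -3.09 over the 17 Hox entries. Over all 32 Hox entries it was -0.97, beside -0.31 for the 20595 entries.

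The 11 Hox entries with 10 FPKM or more in Hb9 control MNs were each at least 2-fold lower, whereas of all 9402 entries at such a level 19.3% were lower and 2.34% higher by that margin. This limit of 10 FPKM was set after the values had been seen and uses the control value of the ratio itself, so it leans the count to lower, and 10 of the 11 reached it in Hb9 control alone. Of these 11 entries, only Hoxa2/Hoxa3 and Hoxa4 lay above the 5th percentile of those 9402 log2 ratios, which was -2.44. In A2 SMA MNs, Hoxa2/Hoxa3 and Hoxb9 were the 2 Hox entries that reached 10 FPKM.

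**Figure D1:**
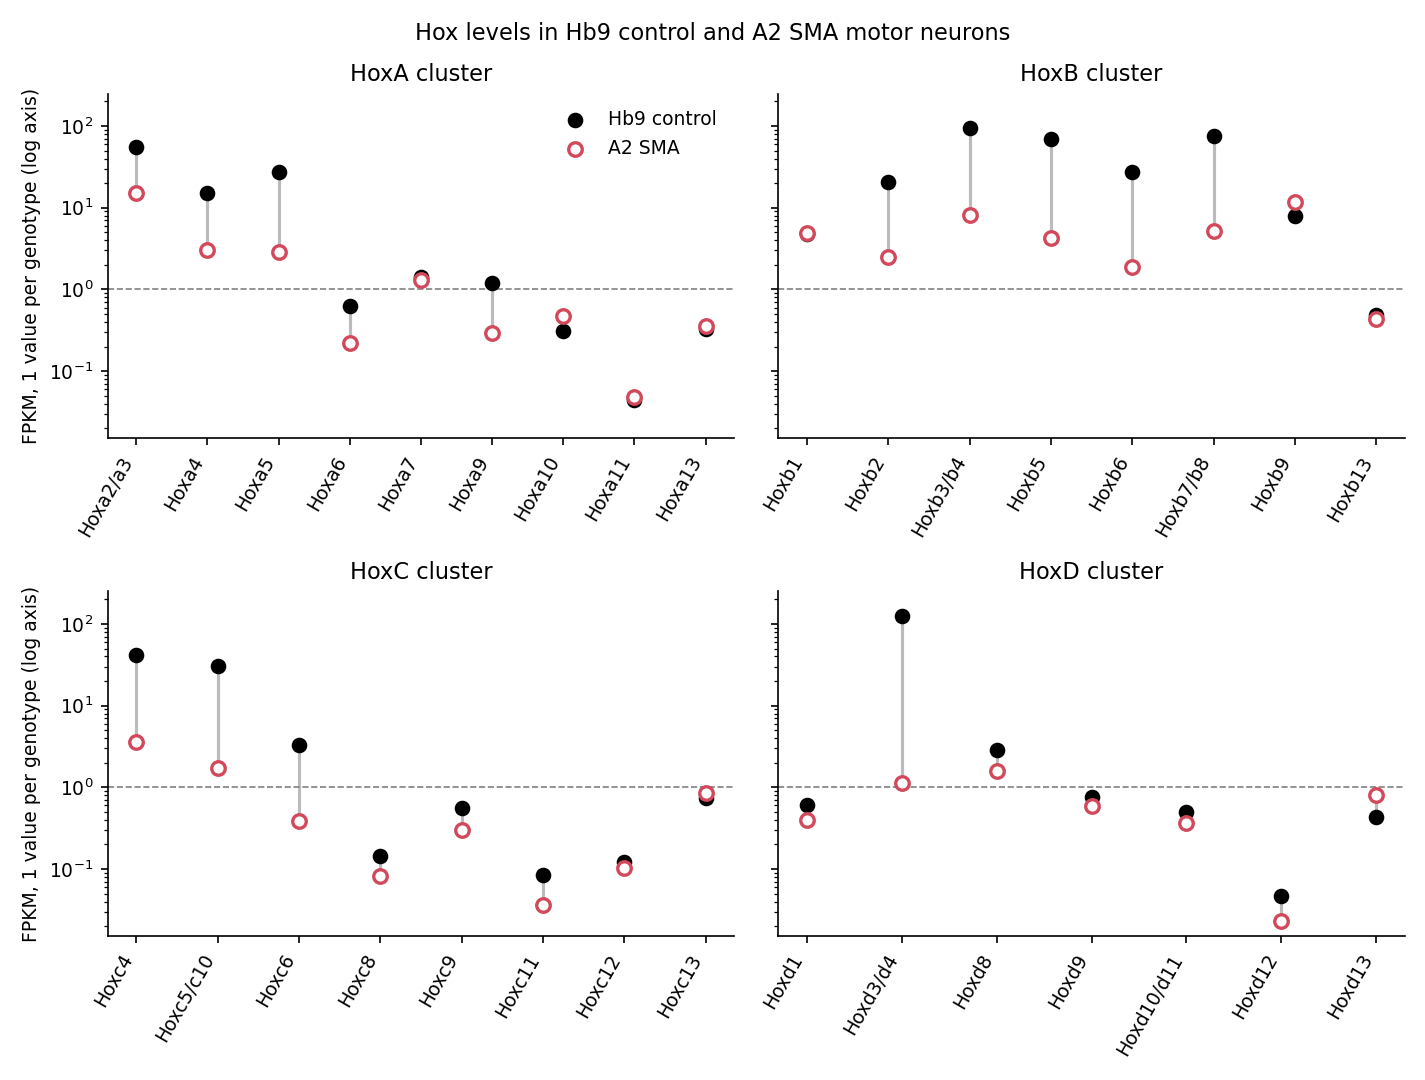
FPKM (log axis) of each of the 32 Hox entries in Hb9 control (filled) and A2 SMA MNs (open), 1 value per genotype, ordered by paralog number within each cluster; the dashed line is 1 FPKM. Hoxd3/Hoxd4 has the widest gap between its points, from 126 to 1.14 FPKM, while the points of Hoxb1, Hoxa7 and Hoxb9 are within 2-fold of each other.

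The HoxD cluster held the highest Hox level of the control. Hoxd3 and Hoxd4, a pair of hindbrain and cervical patterning genes, shared an entry at 126 FPKM in Hb9 control and 1.14 FPKM in A2 SMA MNs. It was first of the 32 Hox entries in the control, in the 93.8th percentile of all entries past the limit, and 15th in A2 SMA MNs. At 111-fold lower, this entry had the largest difference of any Hox entry. Hoxd8, a trunk gene, was at 2.83 and 1.58 FPKM. The rest of the cluster was below 1 FPKM in both genotypes. Hoxd1 was at 0.615 FPKM in the control and 0.398 FPKM in A2 SMA MNs, and Hoxd9 was at 0.757 and 0.590 FPKM. Hoxd10/Hoxd11, Hoxd12 and Hoxd13, which pattern limbs and the tail end of the axis, lay between 0.0469 and 0.494 FPKM in Hb9 control and between 0.0229 and 0.816 FPKM in A2 SMA MNs. The highest of these in A2 SMA MNs was Hoxd13, at 0.436 FPKM in the control against 0.816, with a log2 ratio of 0.90. Summed HoxD levels were 131 and 4.91 FPKM, or 26.7-fold lower, and this sum rested on Hoxd3/Hoxd4.

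The start regions of this pair are shown because its entry differed most. The sequences are the RefSeq windows (GRCm38.p6, 250 bases before to 50 bases after the start, plus strand) at chr2:74721728-74722027 for Hoxd4 and chr2:74711743-74712042 for Hoxd3. Capitals mark a hexamer that RA receptors bind in spaced pairs, read on both strands. It was searched in its usual spelling, AGGTCA, and in the related spelling GGGTCA. Further spellings that were counted are AGTTCA and, as the last of them, GGTTCA.
Hoxd4: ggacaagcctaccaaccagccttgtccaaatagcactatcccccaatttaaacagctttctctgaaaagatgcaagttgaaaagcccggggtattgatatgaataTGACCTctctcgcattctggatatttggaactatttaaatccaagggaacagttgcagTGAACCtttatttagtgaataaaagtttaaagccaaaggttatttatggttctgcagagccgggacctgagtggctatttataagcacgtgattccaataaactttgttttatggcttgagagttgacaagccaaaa
Hoxd3: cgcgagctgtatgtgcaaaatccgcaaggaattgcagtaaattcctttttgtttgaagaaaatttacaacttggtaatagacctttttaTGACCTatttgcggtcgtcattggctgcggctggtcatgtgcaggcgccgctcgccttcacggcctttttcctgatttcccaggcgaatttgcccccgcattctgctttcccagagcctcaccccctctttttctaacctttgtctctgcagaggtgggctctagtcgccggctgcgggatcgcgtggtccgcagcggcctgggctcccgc
Hoxd4 held 2 such hexamers, TGACCT from base -145 and TGAACC from base -87, and Hoxd3 held TGACCT from base -161.

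The HoxB cluster was the most abundant, with 5 entries at least 2-fold lower and the others within 2-fold. Hoxb3 and Hoxb4, which act in the caudal hindbrain and neck, shared an entry at 93.3 FPKM in Hb9 control and 8.04 FPKM in A2 SMA MNs. Hoxb5, a gene of the hindbrain and cervical cord border, was at 69.0 and 4.22 FPKM, which is 16.3-fold lower. Hoxb6 was at 27.7 and 1.90 FPKM. Hoxb7 and Hoxb8, which act in the trunk, shared an entry at 74.6 and 5.25 FPKM. Those last values carry the status FAIL in the deposited table, by which Cuffdiff marks a numerical failure, and Hoxb7/Hoxb8 was the only Hox entry so marked. Hoxb2, a gene of the anterior hindbrain, was at 20.8 FPKM in the control and 2.48 FPKM in A2 SMA MNs. These 5 entries had log2 ratios from -4.03 to -3.07.

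The other HoxB genes showed no such difference. Hoxb1, the marker of the fourth hindbrain segment, stood at 4.73 FPKM in the control and at 4.84 FPKM in the SMA cells (log2 ratio 0.03). Hoxb9, a thoracic gene, was at 7.85 and 11.6 FPKM, which is 1.48-fold higher. Its entry also joins Gm53 and the microRNA gene Mir196a-1. Hoxb13, at the high-numbered end of the cluster, was at 0.490 and 0.433 FPKM. Within HoxB, both ends of the cluster were thus within 2-fold while paralogs 2 to 8 were lower. Summed HoxB levels were 298 FPKM in Hb9 control and 38.8 FPKM in A2 SMA MNs.

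Sequences at Hoxb4 and Hoxb1 are given because they stand for the lower and the level entries of this cluster. The Hoxb4 window is chr11:96318017-96318316 and the Hoxb1 window chr11:96365508-96365807 (GRCm38.p6, plus strand). Capitals mark the RA receptor hexamer in Hoxb4, and in Hoxb1 the letters TGATNNAT, a composite site bound by Pbx and Hox proteins that Hoxb1 is known to use to sustain its own transcription.
Hoxb4: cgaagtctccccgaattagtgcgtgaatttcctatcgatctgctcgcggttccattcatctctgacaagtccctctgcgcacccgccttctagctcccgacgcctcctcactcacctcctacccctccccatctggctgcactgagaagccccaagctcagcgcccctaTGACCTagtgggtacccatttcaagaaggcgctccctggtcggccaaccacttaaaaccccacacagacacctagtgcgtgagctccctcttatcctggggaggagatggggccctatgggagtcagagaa
Hoxb1: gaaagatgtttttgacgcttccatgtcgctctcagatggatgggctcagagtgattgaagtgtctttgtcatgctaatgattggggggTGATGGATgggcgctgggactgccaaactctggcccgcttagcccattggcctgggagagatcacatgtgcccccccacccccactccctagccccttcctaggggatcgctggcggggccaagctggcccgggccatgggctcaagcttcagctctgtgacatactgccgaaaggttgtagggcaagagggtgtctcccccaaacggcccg
The hit in Hoxb4 was TGACCT from base -81, and the hit in Hoxb1 was TGATGGAT from base -162. Each motif was also found at an entry of the other kind. Hoxb8, of the lower Hoxb7/Hoxb8 entry, held TGATNNAT as ATTGATCA from base -11. Hoxa7, within 2-fold, held the RA receptor hexamer as GGTTCA from base -151. A link between these letters and the difference was not tested.

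In HoxC, the entries past 1 FPKM were Hoxc4, Hoxc5/Hoxc10 and Hoxc6. Hoxc4 was at 41.2 FPKM in Hb9 control and 3.55 FPKM in A2 SMA MNs, and a further Hoxc4 entry, not used in the counts, was at 16.1 and 0.705 FPKM. Both were lower, at log2 ratios of -3.54 and -4.52. Hoxc5 and Hoxc10 were joined with Gm20398 in an entry at 30.2 and 1.71 FPKM, so a cervical gene and a lumbar gene cannot be told apart there. Hoxc6, a marker of brachial spinal cord, was at 3.26 FPKM in the control and 0.383 FPKM in A2 SMA MNs. The trunk genes Hoxc8 and Hoxc9 were at 0.146 and 0.555 FPKM in the control and at 0.0820 and 0.297 FPKM in A2 SMA MNs. Hoxc11, Hoxc12 and Hoxc13 lay between 0.0836 and 0.737 FPKM in the control and between 0.0365 and 0.857 FPKM in A2 SMA MNs. Hoxc13 was the highest of these 3 in both genotypes. Summed HoxC levels were 76.3 and 7.01 FPKM.

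HoxA had the smallest difference of the 4 clusters in summed level, from 101 FPKM in Hb9 control to 23.6 FPKM in A2 SMA MNs, or 4.29-fold lower. Hoxa2 and Hoxa3, hindbrain and neural crest patterning genes, shared an entry, which also joins other transcripts, at 54.9 and 14.95 FPKM. This was the highest Hox level of the A2 SMA MNs. Hoxa4 was at 15.1 FPKM in Hb9 control and 3.02 FPKM in A2 SMA MNs. Hoxa5, which together with Hoxc5 acts in cervical motor neurons, was at 27.1 and 2.88 FPKM and had the largest HoxA difference, at 9.42-fold lower. Hoxa7 was at 1.43 and 1.31 FPKM, a log2 ratio of -0.12. Hoxa9, in an entry with 9930038K12Rik, was at 1.19 FPKM in the control and 0.293 FPKM in A2 SMA MNs. Hoxa6, Hoxa10, Hoxa11 and Hoxa13 stayed between 0.0444 and 0.635 FPKM in the control and between 0.0486 and 0.479 FPKM in A2 SMA MNs. The error of such low values is unknown.

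**Figure D2:**
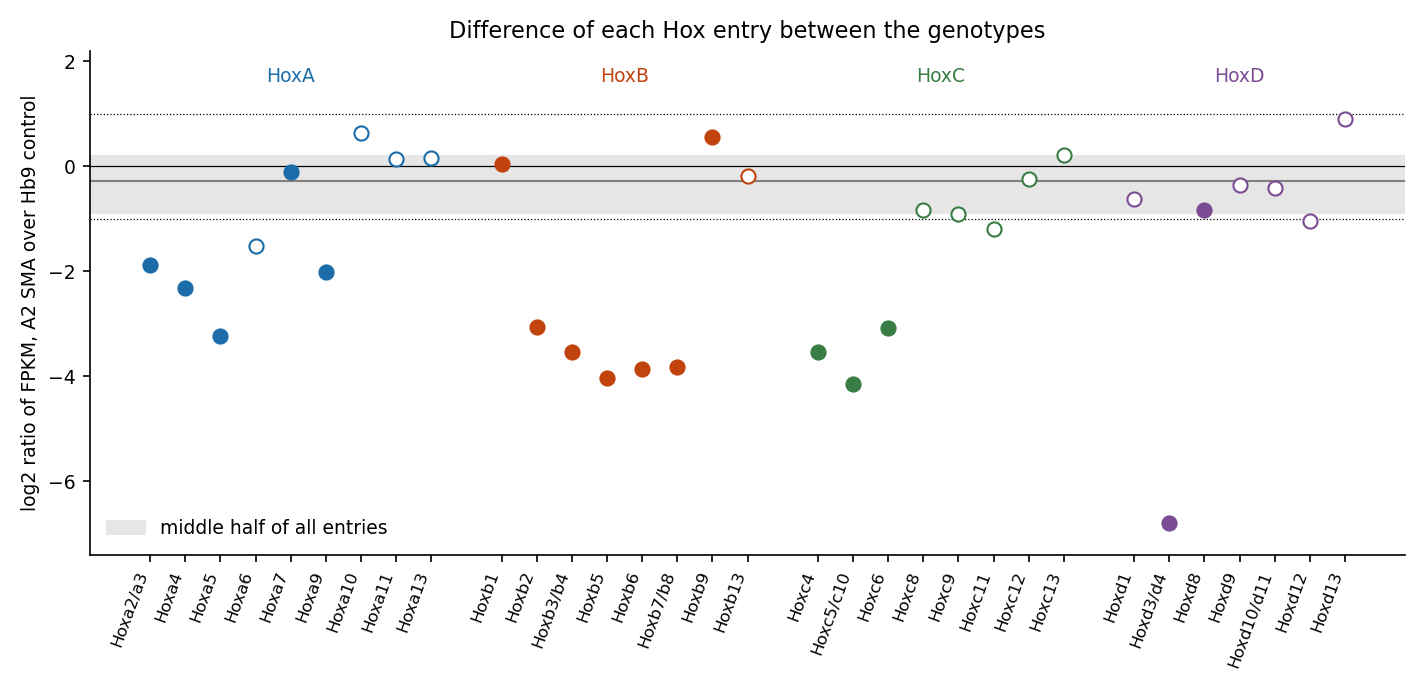
Log2 ratio of FPKM, A2 SMA over Hb9 control, of each Hox entry, grouped by cluster; filled points reach 1 FPKM in either genotype and open points do not. The grey band spans the quartiles (-0.89 to 0.19) and the grey line the median (-0.29) of 14926 entries, dotted lines mark 2-fold, and Hoxd3/Hoxd4 at -6.79 is the lowest point.

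Among entries of a single paralog group, the summed levels differed most in paralogs 4 to 8 and least in paralogs 9 to 13. Entries of paralogs 1 to 3 (4 entries) summed to 81.0 FPKM in Hb9 control and 22.7 FPKM in A2 SMA MNs. Paralogs 4 to 8 (11 entries) summed to 263 and 24.4 FPKM, or 10.8-fold lower. The 3 entries that join genes of different groups (Hoxb3/Hoxb4, Hoxc5/Hoxc10 and Hoxd3/Hoxd4) summed to 249.6 and 10.9 FPKM, or 22.9-fold lower, and cannot be placed in a group. Paralogs 9 to 13 (14 entries) summed to 13.4 FPKM in Hb9 control and 16.3 FPKM in A2 SMA MNs. Of these 14 entries, 12 were below 1 FPKM in both genotypes, so the posterior sum is mostly Hoxb9. Among the entries past 1 FPKM, median log2 ratios were -1.88 for paralogs 1 to 3 (3 entries), -3.24 for paralogs 4 to 8 (9 entries) and -0.73 for paralogs 9 to 13, the midpoint of Hoxa9 at -2.02 and Hoxb9 at 0.56. By cluster they were -2.02 for HoxA (5 entries), -3.54 for HoxB (7 entries), -3.54 for HoxC (3 entries) and -3.82 for HoxD, the midpoint of Hoxd3/Hoxd4 at -6.79 and Hoxd8 at -0.84.

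Because the entries differed unequally, the make-up of the Hox pool differed too. HoxB held 49.2% of the summed Hox FPKM in Hb9 control and 52.2% in A2 SMA MNs. HoxA held 16.6% and 31.7%, HoxC 12.6% and 9.45%, and HoxD 21.6% and 6.62%. The first 3 entries of the control were Hoxd3/Hoxd4, Hoxb3/Hoxb4 and Hoxb7/Hoxb8, and those of the A2 SMA MNs were Hoxa2/Hoxa3, Hoxb9 and Hoxb3/Hoxb4. Hoxb9 made up 1.29% of the pool in the control and 15.6% in A2 SMA MNs. Hoxb1 went from 13th to 5th in order of level, although its own FPKM was nearly the same in both.

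**Figure D3:**
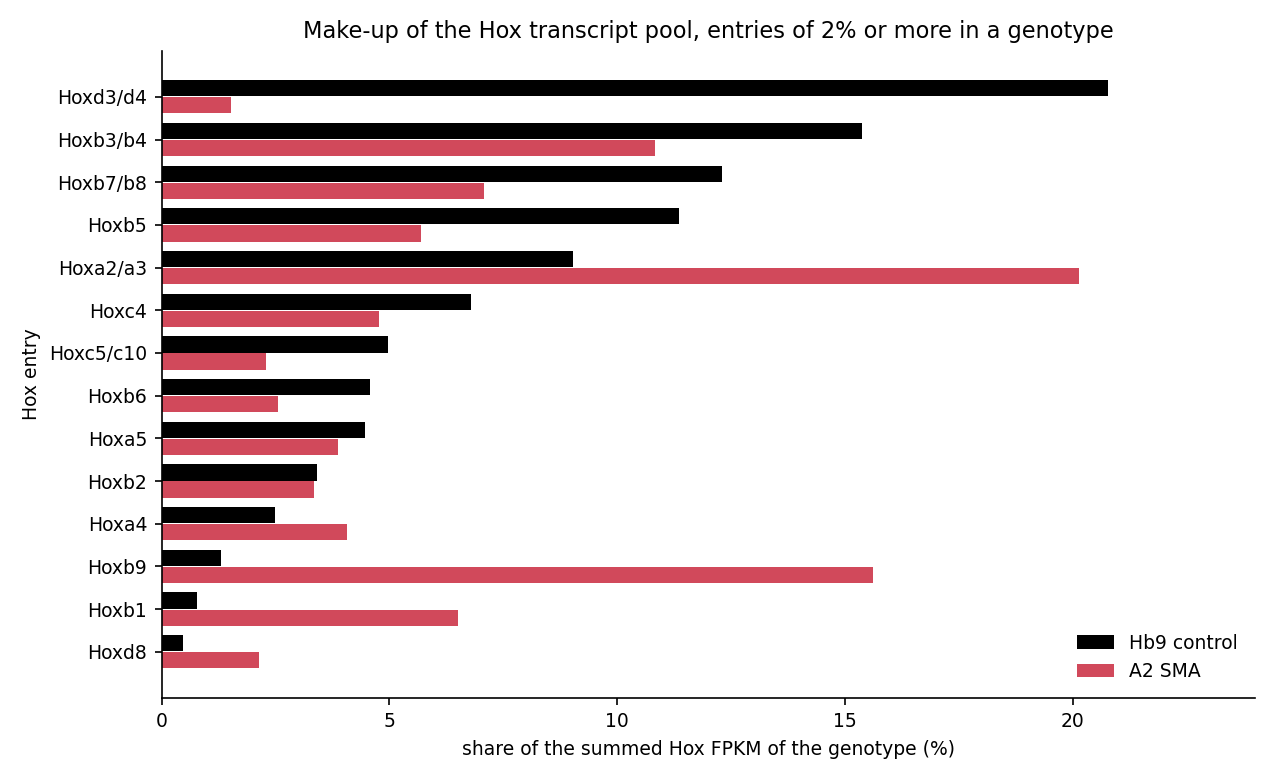
Share of the summed Hox FPKM (%) of each genotype for the 14 entries that make up 2% or more of the pool in Hb9 control (black) or A2 SMA MNs (red). Hoxd3/Hoxd4 leads the control with 20.8% against 1.53% in A2 SMA, and Hoxa2/Hoxa3 (20.1%) and Hoxb9 (15.6%) lead the A2 SMA pool.

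Most other entries inside the clusters that passed 1 FPKM were lower in A2 SMA MNs. By the table's loci (NCBI m37, coordinates as deposited), the clusters ran over chr6:52105365-52210874 (HoxA), chr11:96055629-96229570 (HoxB), chr15:102751533-102867276 (HoxC) and chr2:74506366-74603200 (HoxD). Inside these spans lay 23 other entries, of which 11 reached 1 FPKM, and 10 of the 11, the further Hoxc4 entry among them, were at least 2-fold lower in A2 SMA MNs. Of those 10, 6 passed through Hb9 control alone. The remaining entry was an unnamed HoxB locus within 2-fold. Over all entries with a symbol past the limit, 22.4% were at least 2-fold lower. Chosen after their values were seen, the noncoding genes Gm15051 (35.2 FPKM in the control and 8.44 FPKM in A2 SMA) and 5730446D14Rik (16.6 and 0.247 FPKM) in HoxA, and 0610040B09Rik (32.6 and 1.85 FPKM) in HoxB, are examples. Hoxb3os, the transcript opposite Hoxb3, was at 69.0 FPKM in the control and 9.89 FPKM in A2 SMA MNs. The library kit did not mark strand, so the reads of Hoxb3os and Hoxb3 cannot be told apart where they overlap. Of 18 listed noncoding RNAs of the clusters, 7 were in the table and 3 reached 1 FPKM, of which Hoxb3os and the Mir10a host entry were at least 2-fold lower.

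Beyond the clusters the entries differed from cluster to cluster. At HoxB and HoxD, those past 1 FPKM were within 2-fold on both sides, and at HoxA and HoxC none passed on the high-numbered side. Within 100 kb of the high-numbered ends, 5 entries reached 1 FPKM and each was within 2-fold. The Evx genes, homeobox genes that border the high-numbered ends of HoxA and HoxD, were low in both genotypes, with Evx1 at 0.554 and 0.121 FPKM and Evx2 at 0.172 and 0.0570 FPKM. Calcoco2, beside HoxB, was at 11.9 FPKM in Hb9 control and 23.2 FPKM in A2 SMA MNs, and Calcoco1, farther from HoxC, was at 44.2 and 46.6 FPKM. Mtx2, the mitochondrial import gene beyond Hoxd1, was at 86.0 and 66.6 FPKM.

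The low-numbered end of HoxC stood apart from these. Of 13 entries there that reached 1 FPKM, 9 were at least 2-fold lower in A2 SMA MNs and 4 were listed at 0 there. All 13 passed through Hb9 control alone, with at most 0.267 FPKM in A2 SMA MNs, so the limit itself leaned the count to lower. Among the 13 were 11 unnamed loci of the authors' assembly, 7 of them lower and 4 listed at 0. Over all unnamed loci past 1 FPKM and above 0 in both genotypes, 22.6% of 4289 were at least 2-fold lower and 18.6% at least 2-fold higher, and 2.34% of the 4526 past 1 FPKM were listed at 0 in A2 SMA MNs. The only named gene among them, D930007P13Rik, was at 5.37 FPKM in the control and 0.0545 FPKM in A2 SMA MNs at its higher entry, 75.5 kb from the cluster. Past it, Smug1, a DNA repair gene, was at 16.0 and 6.97 FPKM and Cbx5, a heterochromatin gene, at 107 and 94.1 FPKM. On the low-numbered side of HoxA, 3 entries passed 1 FPKM and none was lower. Of these, 2 were at least 2-fold higher in A2 SMA MNs and 1 was listed at 0 in Hb9 control, and 2 of the 3, both unnamed loci, passed through A2 SMA alone. The named one, Gm15055, was at 17.1 FPKM in Hb9 control and 63.3 FPKM in A2 SMA MNs, with status FAIL.

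**Figure D4:**
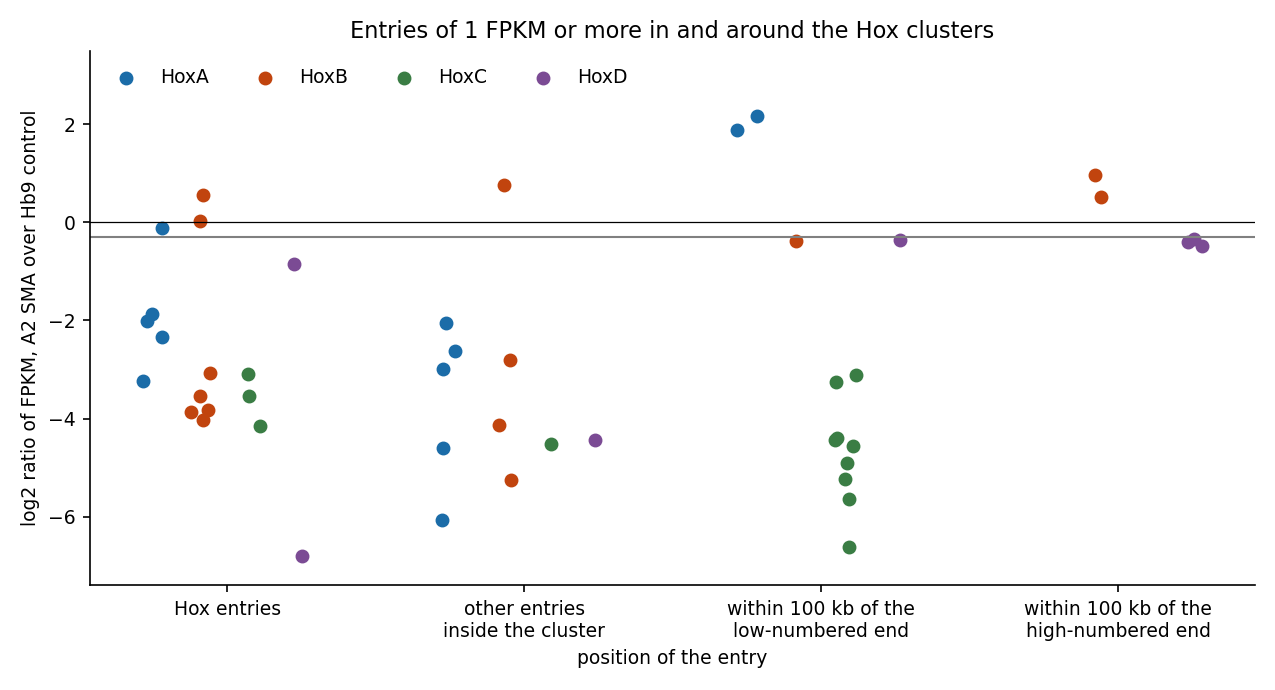
Log2 ratio of FPKM, A2 SMA over Hb9 control, of entries with at least 1 FPKM in either genotype and above 0 in both, by position relative to the clusters (points are entries, coloured by cluster, spread sideways for sight; the grey line is the median of all entries, -0.29). Hox entries and other entries inside the clusters are mostly below -1, the 5 entries beyond the high-numbered ends are within 2-fold, and the 9 HoxC entries beyond its low-numbered end are all below -1.

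MicroRNA genes of the clusters were not measured as such. Mir10b, Mir196a-2 and Mir615 had a listed value of 0 for either genotype, and Mir10a and Mir196a-1 had only the values of the Hoxb3/Hoxb4 and Hoxb9 entries they were joined to, which went apart by log2 ratios of -3.54 and 0.56. Mature sequences (RefSeq, 5′ to 3′, seed of bases 2 to 8 in capitals) are shown because the clusters encode families with a shared seed, so the hosts of a seed family lie in several clusters.
mmu-miR-10a-5p: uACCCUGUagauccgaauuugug
mmu-miR-10b-5p: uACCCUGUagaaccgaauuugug
mmu-miR-196a-5p: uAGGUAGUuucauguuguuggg
mmu-miR-196b-5p: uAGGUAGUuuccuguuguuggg
Counted from the 5′ end, miR-10a-5p and miR-10b-5p differed at 1 base (U12A) and miR-196a-5p and miR-196b-5p at 1 base (A12C), with the same seed within each pair.

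The same letters were counted in the start regions of all genes. RefSeq windows were found for 22 of the 38 members, in 24 windows of 300 bases. On either strand, the RA receptor hexamer was in 11 of the 24 and in 43.7% of all 32851 windows. Direct repeats of it spaced by 1, 2 or 5 bases, the arrangements RA receptors prefer, were in 0 of the 24 and in 0.222%, 0.268% and 0.0974% of all windows. TGATNNAT was in 4 of the 24, at Hoxa2, Hoxb1, Hoxb8 and Hoxd11, and in 8.85% of all windows. The median number of CpG dinucleotides was 14.5 in the Hox windows and 7 in all windows.

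The cofactors of the Hox proteins were lower as well. All 9 Meis, Pbx and Pknox genes were past 1 FPKM, and 7 of the 9 were at least 2-fold lower and 0 higher, with a median log2 ratio of -1.97. Beside this, 22.4% of all entries past the limit were lower and 6.83% higher. Meis2 was at 226 FPKM in Hb9 control and 47.9 FPKM in A2 SMA MNs, and Meis1 was at 138 and 18.2 FPKM. Pbx2, in an entry with Gpsm3, was within 2-fold at 149 and 108 FPKM.

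Regional genes upstream of or beside the Hox code were read from lists of the hindbrain, the forebrain and midbrain, and the caudal end. Over all entries past the limit, 22.4% were lower and 6.83% higher by 2-fold. Of 9 hindbrain genes, 7 passed 1 FPKM, and 4 were at least 2-fold lower and 0 higher. Phox2a, which acts in visceral motor neurons of the hindbrain, was at 64.4 FPKM in the control and at 3.94 FPKM in A2 SMA MNs. Tbx20, a gene of the same neurons, was at 20.3 and 1.52 FPKM. Gbx2, which sets the border between midbrain and hindbrain, was at 12.9 and 6.82 FPKM. Of 11 forebrain and midbrain genes, 6 passed, with 1 lower, 1 higher and 4 within 2-fold. Otx2, the most abundant of them, was at 19.0 FPKM in Hb9 control and 25.8 FPKM in A2 SMA MNs, with status FAIL. Of 6 caudal progenitor genes, 3 passed and all 3 were lower, but 2 of these passed through Hb9 control alone, and the 3 genes below 1 FPKM in both genotypes had log2 ratios above 0. The most abundant was Gdf11, a signal for caudal Hox use, at 22.2 and 3.53 FPKM. The Cdx genes, which activate trunk Hox genes, were low, and of 8 Cdx, Evx and ParaHox genes only Cdx1 passed, at 2.06 and 2.58 FPKM.

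Genes of motor columns and pools were mixed. The list includes Isl1, Isl2, Lhx3 and Lhx4, general motor neuron factors that are also counted among the motor neuron markers and made up 4 of the 8 lower genes. Of 14, all past 1 FPKM, 8 were at least 2-fold lower, 1 was higher and 5 were within 2-fold, and 3 of the lower genes passed through Hb9 control alone. The shares over all entries were 22.4% lower and 6.83% higher. Isl1, a LIM homeodomain factor of motor neurons, was at 108 FPKM in Hb9 control and 5.95 FPKM in A2 SMA MNs, and Gfra1, a GDNF receptor subunit, was at 56.4 and 2.92 FPKM. Foxp1, the cofactor by which Hox proteins set limb motor neurons, shared an entry with Eif4e3 that was within 2-fold at 47.1 and 34.9 FPKM. Etv4, a motor pool factor also made in other cells, was the higher gene, at 21.3 FPKM in the control and 59.8 FPKM in A2 SMA MNs.

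The counts of the next 3 lists stand beside 22.4% lower and 6.83% higher over all entries. Of the RA response list, 8 of 11 genes were at least 2-fold lower, 1 was higher and 2 were within 2-fold, with a median log2 ratio of -1.69. The higher gene was Rarg, an RA receptor, at 12.5 and 65.5 FPKM with status FAIL, named after its values were seen. The RA carriers Crabp1 (1134 and 88.3 FPKM) and Crabp2 (231 and 21.0 FPKM) were lower in A2 SMA MNs, and Stra8, the germ cell gene that responds to RA, was at 219 and 381 FPKM with status FAIL. Among Polycomb genes, whose products keep Hox clusters silent, 4 of 15 were at least 2-fold lower, 2 higher and 9 within 2-fold. The lower count was near the share over all entries. The most abundant of these were Phc1 (90.1 FPKM in the control and 302 FPKM in A2 SMA), Jarid2 (132 and 290 FPKM), Phc2 (275 and 89.5 FPKM) and Suz12 (151 and 233 FPKM, status FAIL). Of 8 Trithorax and demethylase genes in the table, 7 were within 2-fold and 1 was lower, with a median log2 ratio of 0.03, and 3 of the 8 carry the status FAIL, the lower gene among them.

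**Figure D5:**
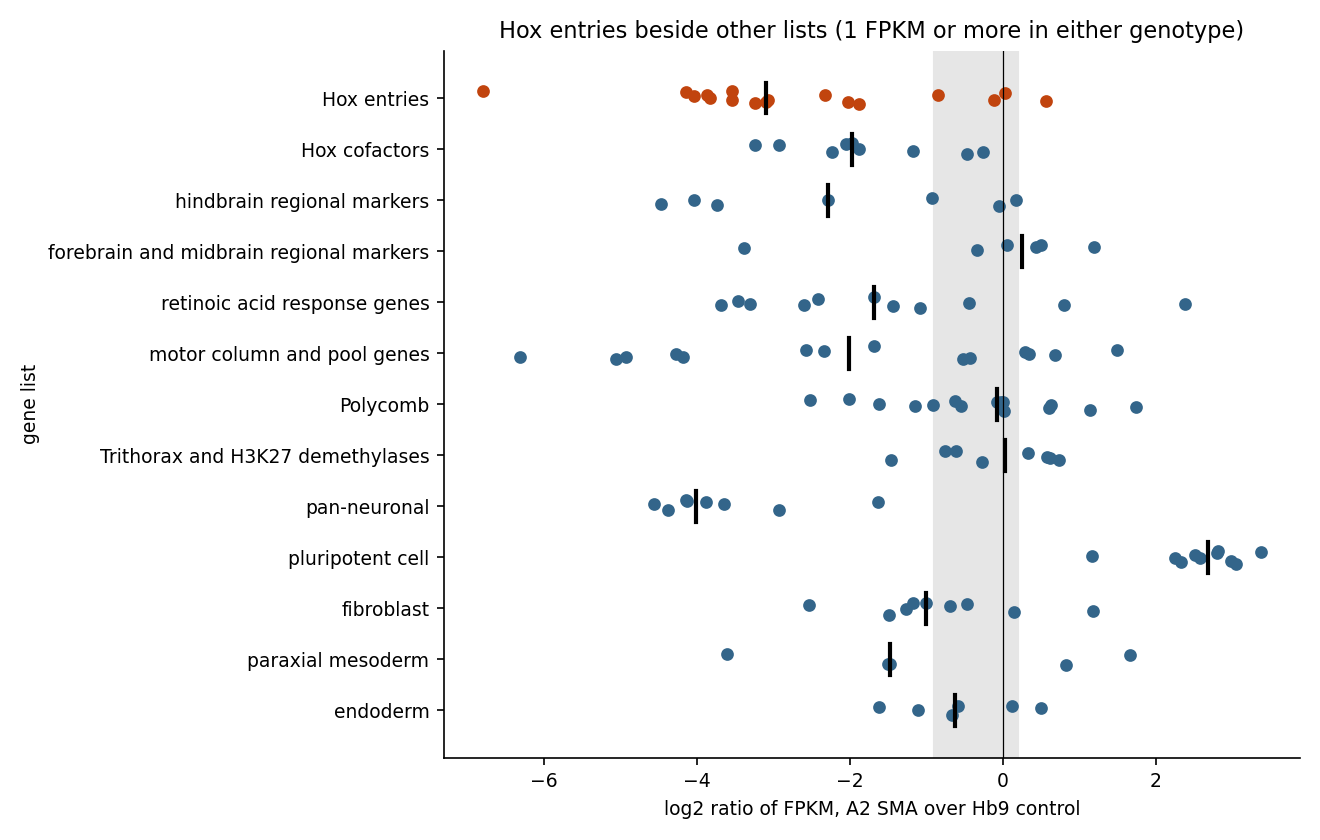
Log2 ratio of FPKM, A2 SMA over Hb9 control, of the Hox entries (orange) and of other lists (blue), limited to genes that reach 1 FPKM in either genotype; black bars are medians and the grey band spans the quartiles of all entries. The medians of the Hox entries (-3.09) and the pan-neuronal list (-4.00) are low, those of the Polycomb (-0.08) and Trithorax (0.03) lists are near 0, and that of the pluripotent list (2.69) is high.

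Cell type markers were read from further lists, and these did not all differ in the same direction. Their counts stand beside 22.4% lower and 6.83% higher over all entries past the limit. Smn1, the gene removed in the A2 line, was at 137 FPKM in Hb9 control and 5.26 FPKM in A2 SMA MNs. All 10 pluripotent cell markers were at least 2-fold higher in A2 SMA MNs, and their summed level was 303 FPKM in Hb9 control and 1961 FPKM in A2 SMA MNs. Of these 10, 3 carry the status FAIL. None was at 0 in either genotype, and Pou5f1, the defining factor, was at 98.3 and 775 FPKM. All 8 pan-neuronal markers in the table were at least 2-fold lower, with sums of 1252 and 133 FPKM, and 2 of them carry the status FAIL and 1 passed through Hb9 control alone. Of 6 motor neuron markers past the limit, 5 were lower, while Mnx1, whose promoter drove the sorting reporter, was at 41.2 and 44.2 FPKM. Of the 5, 3 passed through Hb9 control alone, and Lhx4 among them carries the status FAIL. Chat, which makes acetylcholine, was at 15.5 FPKM in the control and 0.344 FPKM in A2 SMA MNs, so this marker was nearly absent from the cells labelled as A2 SMA motor neurons. Fibroblast markers, of the feeder layer on which mESCs were grown, summed to 127 and 77.8 FPKM, with 5 of 9 lower, 2 of these through Hb9 control alone, and 1 higher. Paraxial mesoderm markers summed to 30.0 and 38.9 FPKM (3 of 5 lower, 2 of these through Hb9 control alone, and 1 higher) and endoderm markers to 91.1 and 42.4 FPKM (2 of 6 lower, 0 higher). Their part in the Hox difference was not tested. In these bulk samples, fewer cells of a type and less RNA per cell cannot be told apart.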

How the data were processed

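RNA from FACS-collected Hb9 control and A2 SMA MNs was sequenced by the authors in 3 samples per genotype as 50-cycle single-end reads from an unstranded TruSeq library. Per the methods and the submitters' processing notes, reads were checked with FastQC 0.10.1, trimmed with cutadapt, mapped with TopHat 2.04 to NCBI m37 with Ensembl annotation and assembled with Cufflinks. The deposited values are FPKM, 1 per gene and genotype, which the authors made with Cuffdiff from the 3 samples together. The table also holds the authors' log2 fold changes, test statistics, p-values and q-values, and these were not used.

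With Python 3.11.15, numpy 2.4.6 and pandas 2.3.3 (figures with matplotlib 3.10.9), each symbol was given its entry with the highest FPKM in either genotype. Log2 ratios of A2 SMA over Hb9 control were formed without a pseudocount. A 2-fold limit was applied to entries with at least 1 FPKM in either genotype and above 0 in both, and the same count over all entries was set beside it. The calculation was tested on simulated data. No test was run, since there is 1 value per genotype and no depth per gene.

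All Hox members were named, with the 3 nearest symbols on each side of each cluster as flanking genes, of which those at 0 or near it were not printed, and up to 4 of the most abundant genes of each other list. Some genes these rules name are not reported here. Evx1 and Evx2 were flanking genes too, and Smn1 and Chat were named as checks. The members and lists were chosen with earlier results of these data known. Other scalings, pseudocounts, limits on low values and ways of counting joined entries were tried. The table's loci span whole overlapping assemblies, so positions are coarse, and they were not mixed with the GRCm38.p6 coordinates of RefSeq sequences.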

Additional observations from a re-analysis of the deposited data

How the results depend on the processing

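In all, 14 results were recomputed, giving 112 alternative values. Of these, 96 stayed within 1.5-fold of the reported value, and the median of paralogs 9 to 13 was the result whose sign changed, under a higher limit. With a limit of 0.1 FPKM in place of 1 FPKM, 29 Hox entries were listed above it in Hb9 control and 28 in A2 SMA MNs, and with 5 FPKM, 4 in A2 SMA MNs. Without a limit on low values, the median log2 ratio was -0.97 for all Hox entries, -1.05 for HoxC, -0.63 for HoxD and -1.25 for paralogs 1 to 3, since the entries below 1 FPKM then entered. With at least 5 FPKM it was -6.79 for HoxD, -2.47 for paralogs 1 to 3 and 0.56 for paralogs 9 to 13, where Hoxb9 was the entry left. With each symbol of a joined entry counted it was -6.79 for HoxD, -2.47 for paralogs 1 to 3 and -2.02 for paralogs 9 to 13. A pseudocount of 1 FPKM, which shrinks ratios of low values, gave -3.23 for HoxD and -0.12 for paralogs 9 to 13. The medians of HoxD and of the posterior paralogs rest on 2 entries each. Chosen after seeing the data, leaving out entries that join several Hox genes left 8 of 12 at least 2-fold lower, beside 13 of 17. Centring on the median entry moved each log2 ratio by 0.29, since that median is -0.29, and changed no count by over 1.5-fold. No paired analysis was possible because the table holds 1 value per genotype, and for the same reason no sample could be left out. Depth per value is unknown, which limits the entries below 1 FPKM most.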
